A study of Homo sapiens with 2 samples.

Results

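The mitochondrial ribosomal protein genes are the nuclear genes whose symbol is MRPL or MRPS followed by a number, with a trailing A, B or C allowed and pseudogenes left out. By this rule 78 of the 60683 genes in the count table were members, 49 of the large subunit (MRPL) and 29 of the small subunit (MRPS). Their RNA was measured by RNA-seq in HEK293T cells, a human embryonic kidney line carrying the SV40 large T antigen, in which FKBP5 was stably knocked down with short hairpin RNAs. FKBP5 encodes a co-chaperone of HSP90. The samples analysed form 1 group of 2 FKBP5 knockdown samples, called sample 2 and sample 1, with no further treatment given. Control cells were not analysed here, so levels and the difference between the samples are described and no effect of the knockdown was measured. Whether the samples came from separate cultures or clones is not stated, and their spread may be technical only.

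The mitochondrial ribosome translates the messenger RNAs of the mitochondrial genome, which encode subunits of the respiratory chain and of ATP synthase. Its ribosomal RNAs come from the mitochondrial genome, whereas all of its proteins are encoded in the nucleus, made in the cytosol and imported. The large subunit joins amino acids and holds the exit tunnel, and the small subunit decodes the messenger. Some of the proteins descend from bacterial ribosomal proteins and others were gained in the mitochondrion.

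Sample 2 held 21284648 counts and sample 1 held 9997706. FKBP5 itself had 77 counts in sample 2 and 41 in sample 1, which were 3.52 CPM in sample 2 and 3.95 CPM in sample 1 (counts scaled to a fixed total by the authors' library size). Genes that HEK293T cells are known to express were present, with a mean of 297 CPM for NEFL, 128 CPM for VIM and 21.3 CPM for PAX2. The blood markers PTPRC, CD3E and CD14 had 0.277, 0.114 and 0.676 CPM. Of the 6 markers of fibroblasts and liver, 4 lay under 1 CPM, and the exceptions were the fibroblast markers COL1A1 at 59.7 CPM and COL3A1 at 5.34 CPM.

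Upstream sequences of the highest genes are shown first, since the member promoters often held the same short motifs. RefSeq's promoter table (GRCh38.p14) held 85 start sites for 69 of the 78 genes. The 250 bases before a start site are printed for the 3 highest genes of each subunit by level per kilobase, read 5′ to 3′ on the gene's strand, with the ETS core CCGGAAG or its reverse complement in capitals. The windows are, for the large subunit, chr9:137551629-137551878 (plus strand) for MRPL41, chr1:54199917-54200166 (plus) for MRPL37 and chr6:159789562-159789811 (plus) for MRPL18. For the small subunit they are chr20:3045802-3046051 (plus) for MRPS26, chr16:1773135-1773384 (minus) for MRPS34 and chr1:150293611-150293860 (plus) for MRPS21. The start sites are those of RefSeq, and for all of these genes except MRPL18 GENCODE 29 lets the gene begin further upstream, so that some or all of the bases shown lie inside the annotated gene.
MRPL41: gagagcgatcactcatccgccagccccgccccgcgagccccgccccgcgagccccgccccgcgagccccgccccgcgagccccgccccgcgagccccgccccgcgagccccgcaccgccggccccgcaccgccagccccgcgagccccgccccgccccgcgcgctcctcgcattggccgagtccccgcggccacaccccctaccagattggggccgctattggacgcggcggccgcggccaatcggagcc
MRPL37: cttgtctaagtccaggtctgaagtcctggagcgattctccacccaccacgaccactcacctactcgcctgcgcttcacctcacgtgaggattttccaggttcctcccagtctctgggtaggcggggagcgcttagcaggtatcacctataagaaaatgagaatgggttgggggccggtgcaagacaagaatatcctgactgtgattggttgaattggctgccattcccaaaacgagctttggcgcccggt
MRPL18: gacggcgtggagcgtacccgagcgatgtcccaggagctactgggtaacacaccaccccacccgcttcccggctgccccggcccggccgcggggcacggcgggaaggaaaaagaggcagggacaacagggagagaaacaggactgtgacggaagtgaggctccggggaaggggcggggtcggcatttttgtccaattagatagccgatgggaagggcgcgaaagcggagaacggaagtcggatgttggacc
MRPS26: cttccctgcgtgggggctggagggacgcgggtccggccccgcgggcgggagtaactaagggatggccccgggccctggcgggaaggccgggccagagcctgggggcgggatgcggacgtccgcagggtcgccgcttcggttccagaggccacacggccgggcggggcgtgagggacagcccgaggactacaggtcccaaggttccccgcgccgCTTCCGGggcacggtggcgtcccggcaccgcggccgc
MRPS34: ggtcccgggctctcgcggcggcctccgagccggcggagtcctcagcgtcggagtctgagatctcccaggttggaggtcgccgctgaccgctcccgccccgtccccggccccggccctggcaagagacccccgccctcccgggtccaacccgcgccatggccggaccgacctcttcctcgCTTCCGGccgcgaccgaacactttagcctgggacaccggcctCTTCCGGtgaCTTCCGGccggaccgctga
MRPS21: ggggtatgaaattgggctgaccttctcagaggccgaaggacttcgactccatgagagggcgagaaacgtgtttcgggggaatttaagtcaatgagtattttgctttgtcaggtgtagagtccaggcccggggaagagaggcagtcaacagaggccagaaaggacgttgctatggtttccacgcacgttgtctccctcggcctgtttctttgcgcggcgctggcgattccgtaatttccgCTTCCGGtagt
In these bases none of the 3 large subunit sequences holds the ETS core, and all 3 of the small subunit do, with 3 copies before MRPS34. MRPL18 does hold the core in the longer windows counted below, so the contrast rests on the stretch shown. MRPL41 instead carries 7 copies of the 14-base stretch gccccgcgagcccc.

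Over windows of 300 bases (250 before and 50 after each start, both strands), the ETS core CCGGAAG, the binding sequence of GABPA and related factors, was found in 19 of 52 large subunit promoters and in 14 of 33 small subunit promoters. Together these were 38.8% of the member promoters, against 10.3% of all 35116 promoters and 15.7% of the promoters of protein-coding genes that averaged 1 CPM or more. The YY1-type sequence AAGATGGCG stood in 15.3% of member promoters, against 1.75% of all promoters and 3.20% of those of the protein-coding genes just named. The NRF1 motif, which is GCGCA, any base and GCGC, stood in 11.8% of member promoters, against 5.78% of all and 9.30% of those protein-coding ones. The TATA sequence TATAAA was found in 3 member promoters, which is 3.53%, against 11.5% of all and 6.30% of the protein-coding ones. CCAAT occurred in 32.9% of member promoters, against 34.6% of all and 34.3% of the protein-coding ones. The GC box GGGCGG occurred in 51 of the 85, against 45.0% of all and 65.9% of the protein-coding ones. AAGATGGCG can share its first 3 letters with the end of the ETS core, and did so in 0 of the 85 promoters. These shares are a description, with no test. The 30 genes with an ETS core had a median level of 18.0 CPM per kilobase, against 19.5 for the 39 genes whose promoters in the table held none. For the other motifs the medians with and without were 10.8 and 21.5 (YY1-type, 13 genes with it) and 31.6 and 16.5 (NRF1, 9 genes). They were 23.0 and 12.8 for the GC box, 16.3 and 19.9 for CCAAT, and 24.4 and 16.5 for TATAAA (3 genes). None of these differences was tested.

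Many of the genes also start close to a neighbour on the other strand. For 29 of the 78 genes (37.2%), 21 of the large subunit and 8 of the small subunit, a protein-coding gene on the opposite strand began within 1000 bases of the start, on either side of it. The share was 12.96% over all protein-coding genes and 17.0% over those that averaged 1 CPM or more (GENCODE 29). The nearest such neighbour began upstream of 16 of the 29, and in the other 13 it began inside the member, so that the genes overlap. Counting upstream starts alone, the share was 21.8% of the members, 7.37% of all protein-coding genes and 9.48% of those that averaged 1 CPM or more. Some of the neighbours also encode mitochondrial proteins, and the examples that follow were picked from the 29 genes. The share of such neighbours was not counted or set against that of other genes. MRPL36 starts 34 bases from NDUFS6 and MRPL47 starts 36 bases from NDUFB5, both neighbours encoding complex I subunits. MRPL43 starts 148 bases from TWNK, the mitochondrial DNA helicase, and MRPS12 starts 348 bases from SARS2, the mitochondrial seryl-tRNA synthetase, and both pairs overlap. MRPS11 and MRPL46, of different subunits, face each other at 34 bases. Their levels in the count table were far apart, at a mean of 34.1 CPM for MRPS11 and 4.19 CPM for MRPL46. Of the coding bases of MRPL46, 64.0% are also exon of AC013489.1 on the same strand, and the part of this in its level was not tested. The head-to-head genes had a median of 19.3 CPM per kilobase and the others 13.6, a difference that was not tested. The groups differ in their mix of subunits, with 21 of the 29 head-to-head genes in the large subunit, against 49 of all 78 genes. The 78 genes are spread over 21 chromosomes, with at most 8 on any of them.

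As a set, the genes were expressed at moderate levels. They took 84190 counts in sample 2, or 0.396% of the library, and 42958 counts in sample 1, or 0.430%. In the mean of both samples, 75 of 78 genes reached 1 CPM, 69 reached 10 CPM and 5 reached 100 CPM. The median gene had 38.9 CPM in sample 2 against 44.5 in sample 1. Because longer transcripts give more reads, levels of different genes are compared below in CPM per kilobase of exon, with the union of exons in GENCODE 29 as the length. On that scale the median member had 15.6 CPM per kilobase, against 4.75 for all 15530 genes averaging 1 CPM or more and 5.72 for the protein-coding ones among them. In plain CPM the medians lay closer, at 41.3 for the members, 23.5 for all genes and 31.1 for the protein-coding ones. Median exon length was 2539 bases for the members, 4777 for all genes and 5195 for the protein-coding ones. Of the members, 3 did not reach this minimum of 1 CPM and are counted in their median all the same.

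Large subunit genes stood higher than small subunit genes per kilobase, and not per gene. In sample 2 the median was 19.0 CPM per kilobase for the large subunit and 10.7 for the small subunit, and in sample 1 it was 20.5 for the large subunit and 11.8 for the small subunit. The ratio of the subunit medians, large over small, was 1.78 in sample 2 and 1.73 in sample 1, and 1.73 ± 0.0347 for the mean levels (SD of the samples' ratios, n = 2). Within each subunit the genes spread far more widely than this ratio, over 0.277 to 114 CPM per kilobase among large subunit genes with a count and over 0.125 to 142 among small subunit genes. In plain CPM the order turned round, with medians of 40.6 CPM for the large subunit and 47.7 CPM for the small subunit, a ratio of 0.852. Per kilobase of coding sequence the ratio was 1.15. Median exon length was 2539 bases for the large subunit and 2594 for the small subunit.

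**Figure D1:**
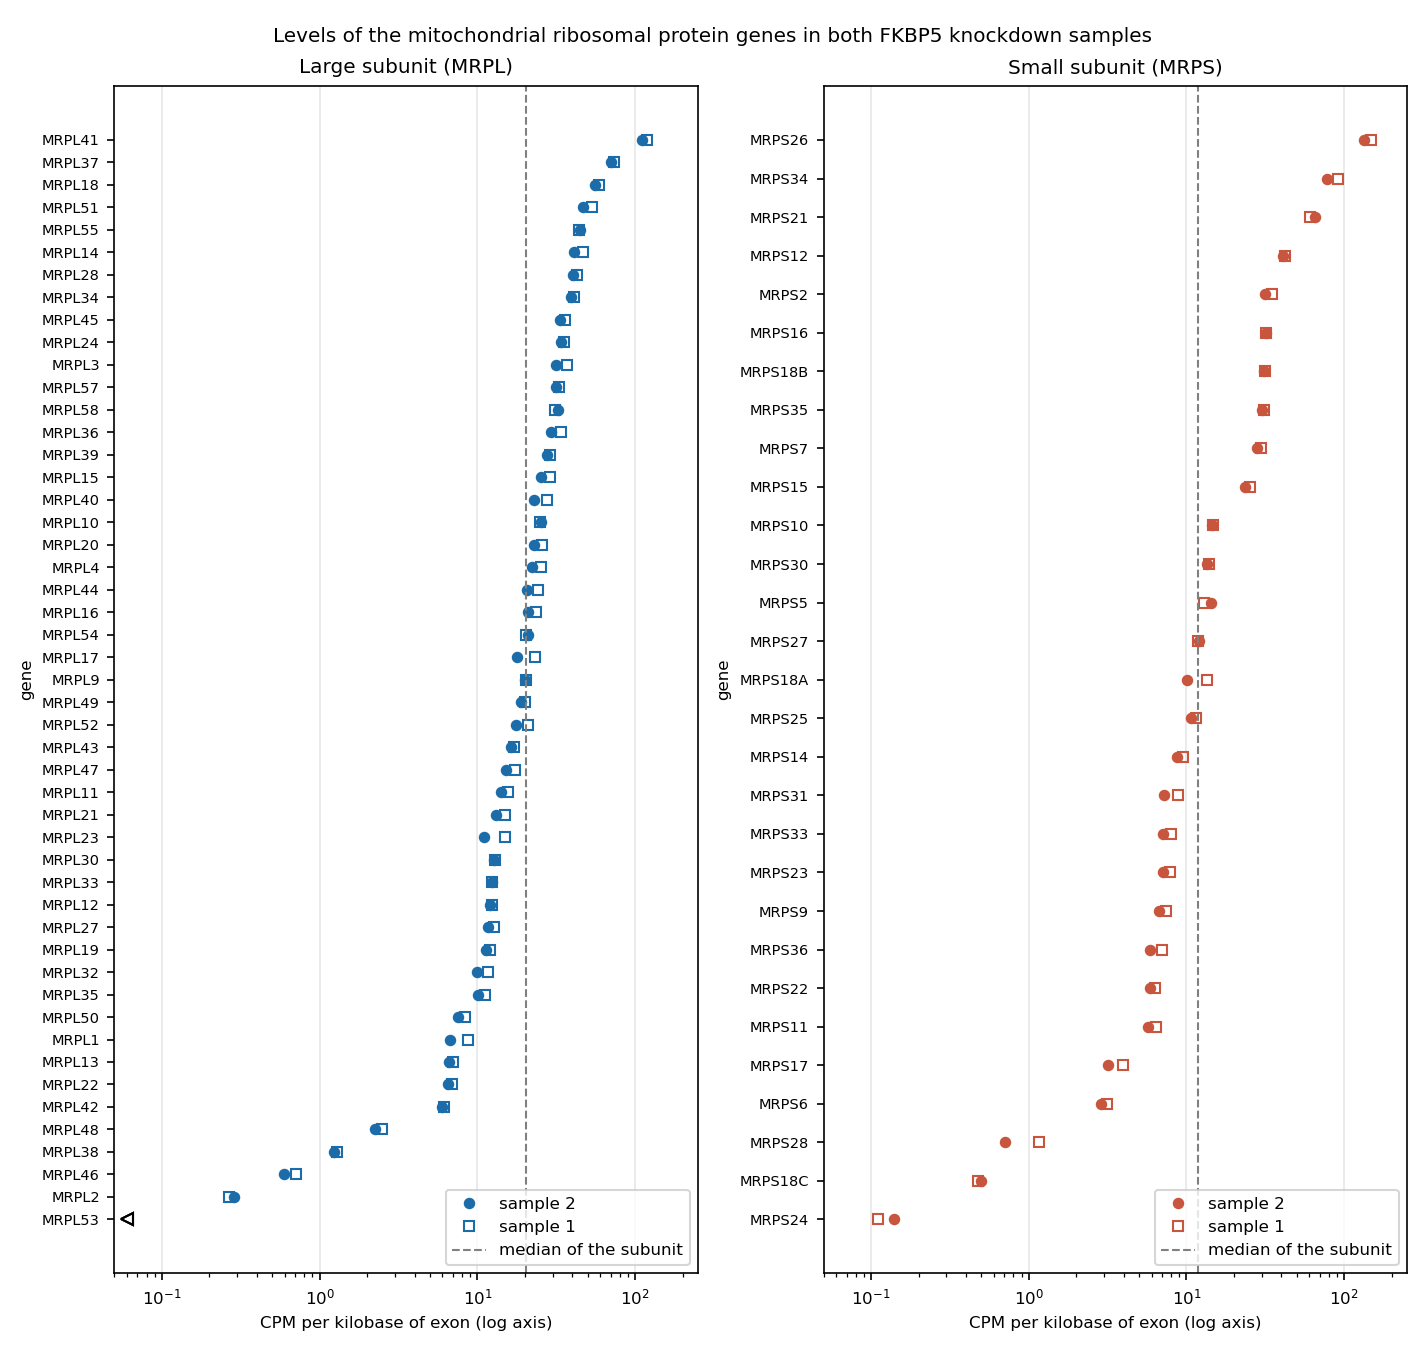
Level of each of the 78 genes in CPM per kilobase of exon (log axis), large subunit genes on the left and small subunit genes on the right, ordered by mean. Filled circles are sample 2, open squares sample 1, dashed lines the medians of 20.3 (large) and 11.8 (small), and the open triangle at the left edge MRPL53, which had no count; the samples lie close together for nearly every gene, while genes of 1 subunit differ by over 100 times.

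The highest genes of the small subunit encode proteins with quite different origins. MRPS26 (ENSG00000125901; chromosome 20, 3045945 to 3048254, plus strand, GRCh38), a protein of the mitochondrial small subunit with no bacterial counterpart, had 151.5 CPM in sample 2 against 167.7 in sample 1. It was the highest of all 78 genes per kilobase, at 142 ± 10.2 (SD, n = 2). MRPS34 (ENSG00000074071; chromosome 16, 1771890 to 1773155, minus strand), also specific to mitochondria and needed for a stable small subunit, had 85.4 CPM in sample 2 against 100.6 in sample 1, or 84.8 ± 9.82 per kilobase. MRPS21 (ENSG00000266472; chromosome 1, 150293720 to 150308979, plus strand), the counterpart of bacterial S21, had 107 CPM in sample 2 against 99.9 in sample 1, or 63.1 ± 3.23 per kilobase. Per kilobase of exon, though not in plain CPM, all 3 lay well above the next gene in both samples. That next gene was MRPS12, the counterpart of bacterial S12 in the decoding centre, with 87.3 CPM in sample 2 against 90.2 in sample 1 and 41.4 ± 0.958 per kilobase. MRPS2, MRPS16, MRPS18B and MRPS35 followed with means between 30.6 and 33.3 CPM per kilobase. Of these, MRPS2, MRPS16 and MRPS18B have bacterial counterparts and MRPS35 does not.

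In the large subunit MRPL41 led by a wide margin. MRPL41 (ENSG00000182154; chromosome 9, 137551199 to 137552555, plus strand), a protein specific to mitochondria, had 138.6 CPM in sample 2 against 149.8 in sample 1, or 114 ± 6.24 CPM per kilobase. MRPL37 (ENSG00000116221; chromosome 1, 54184041 to 54225464, plus strand), likewise specific to mitochondria, had 179.8 CPM in sample 2 against 187.3 in sample 1. Its mean of 183.5 CPM was the highest of the 78 genes before the correction for length, and 72.0 ± 2.08 per kilobase put it behind MRPL41. MRPL18 (ENSG00000112110; chromosome 6, 159789812 to 159798436, plus strand), the counterpart of a bacterial protein that binds 5S ribosomal RNA, had 76.3 CPM in sample 2 against 80.9 in sample 1, or 57.1 ± 2.36 per kilobase. MRPL51, MRPL55, MRPL14, MRPL28 and MRPL34 came next, with means between 39.9 and 49.98 CPM per kilobase. By origin, the 30 genes specific to mitochondria had a median of 18.0 CPM per kilobase and the 48 with a counterpart 14.7. This order did not hold in both subunits, assigned by their place in structures. In the large subunit the median was 20.1 for 20 specific genes and 16.3 for 31 with a counterpart. In the small subunit it was 11.1 for 9 specific genes and 13.6 for 17 with a counterpart. In both subunits the leading gene was specific to mitochondria.

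Proteins at the working sites of the ribosome covered much of this range. Around the exit tunnel, MRPL24 had a mean of 34.5 CPM per kilobase, MRPL45, which ties the ribosome to the inner membrane, 34.6, MRPL23 12.97 and MRPL22 6.72. Of the stalk that recruits translation factors, MRPL10 had 25.2, MRPL11 14.9 and MRPL12 12.3 CPM per kilobase. MRPL58, a peptidyl-tRNA hydrolase built into the large subunit, had 31.7. MRPL44, which resembles RNase III, had 22.4, and MRPL39, which resembles threonyl-tRNA synthetase, had 28.3. MRPS27, a pentatricopeptide repeat protein, had 11.9. Proteins of the same site were not at a common level per kilobase of exon, and the scale moved the spread. In plain CPM the tunnel genes MRPL24, MRPL45, MRPL23 and MRPL22 had means of 58.5, 59.0, 38.6 and 35.4. Per kilobase of coding sequence they had 90.2, 64.3, 67.3 and 50.8. MRPL10, MRPL11 and MRPL12 had 69.6, 37.9 and 12.6 CPM, and 85.6, 65.7 and 21.3 per kilobase of coding sequence. Of the coding bases of MRPL12, 96.0% are also exon of another gene on its strand.

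MRPL42, specific to mitochondria, shows how far the length can move a gene. It had 97.6 CPM in sample 2 against 100.3 in sample 1, near the top of the list. Divided by its 16393 exon bases this was 6.04 ± 0.120 CPM per kilobase, among the lowest 8 of the large subunit. Divided by its 465 coding bases it was 213 CPM per kilobase, near the top again. MRPL13 and MRPL22 also lay among those 8, at 6.81 and 6.72 CPM per kilobase of exon. In the small subunit MRPS11, MRPS22 and MRPS36 were near that level, with 6.06, 6.08 and 6.41.

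The 3 counterparts of bacterial S18 differed widely. MRPS18B had 58.9 CPM in sample 2 against 59.1 in sample 1. MRPS18A, which sits in the large subunit in structures of the ribosome, had 12.9 CPM in sample 2 against 17.3 in sample 1. MRPS18C had 2.43 CPM in sample 2 against 2.31 in sample 1. The order B, A, C held in both samples with no overlap, also per kilobase, at means of 31.2, 11.8 and 0.487. Of the coding bases of MRPS18C, 45.1% lie opposite exons of ABRAXAS1, and 63.5% of its 50-base windows were found in no transcript of another gene. For MRPS18A these shares were 17.5%, opposite RSPH9, and 54.9%. Placing MRPS18A and MRPS30 in the large subunit, where structures have them, and leaving out MRPS36, since assigned to the 2-oxoglutarate dehydrogenase complex, gave a large over small ratio of 1.70. MRPS30 had 83.7 CPM in sample 2 against 86.7 in sample 1, and MRPS36 had 8.92 CPM in sample 2 against 10.7 in sample 1.

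A small tail of genes had next to no counts. MRPL53 (ENSG00000204822; chromosome 2, 74471958 to 74473322, minus strand), a protein specific to mitochondria, had 0 counts in both samples, with upper 95% exact Poisson limits of 0.169 CPM in sample 2 and 0.356 in sample 1. MRPS24 (ENSG00000062582; chromosome 7, 43866558 to 43869893, minus strand), the counterpart of bacterial S3, had 8 counts in sample 2 and 3 in sample 1, or 0.366 CPM in sample 2 (95% exact Poisson limits 0.158 and 0.721) and 0.289 CPM in sample 1 (limits 0.0596 and 0.845). MRPL2 (ENSG00000112651; chromosome 6, 43054029 to 43059806, minus strand), the counterpart of bacterial L2 beside the peptidyl transferase centre, had 16 counts in sample 2 and 7 in sample 1, or 0.732 CPM in sample 2 (limits 0.418 and 1.19) and 0.675 CPM in sample 1 (limits 0.271 and 1.39). MRPS28 followed with 28 counts in sample 2 and 22 in sample 1, and MRPS18C with 53 in sample 2 and 24 in sample 1. These genes encode parts of the same particle as MRPS26 and MRPL41, which had 3311 and 3030 counts in sample 2. The levels of the tail are levels in this count table and not measured amounts of the transcripts, since how reads fitting more than 1 gene were counted was not given in the sources used here.

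Most of this tail overlaps another gene on the same strand. In 9 of the 78 genes at least 40% of the coding bases are also exon of a second gene on that strand (GENCODE 29), and 7 of the 9 were among the 10 lowest genes. The 9 had a median of 1.26 CPM per kilobase and the others 20.3. All coding bases of MRPL53 lie in exons of CCDC142, which had 759 counts in sample 2 and 368 in sample 1. The coding bases of MRPS17, the counterpart of bacterial S17, lie wholly in exons of AC092647.5 and NIPSNAP2. MRPS17 had 149 counts in sample 2 and 89 in sample 1, and NIPSNAP2 had 1567 in sample 2 and 731 in sample 1. MRPS24 is covered to 92.2% by the read-through gene URGCP-MRPS24, which had no count in either sample. MRPL38 is covered to 94.1% by AC087289.3. MRPL38 had 99 counts in sample 2 and 49 in sample 1, or 1.26 ± 0.0372 CPM per kilobase, and AC087289.3 had 9 in sample 2 and 4 in sample 1. MRPL46, with 84 counts in sample 2 and 47 in sample 1, is covered to 64.0% by AC013489.1 and MRPS28 to 53.0% by AC036214.3, both without a count. MRPS6, the counterpart of bacterial S6, is covered to 49.3% and had 12.3 CPM in sample 2 against 13.5 in sample 1.

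Overlap and low counts did not always go together. Smaller overlaps were found in MRPL20 (19.97%), MRPL9 (10.6%) and MRPL33 (9.89%), with 24.3, 20.3 and 12.4 CPM per kilobase. MRPL30 is covered to 95.3% and had 37.0 CPM in sample 2 against 37.3 in sample 1, and MRPL12, the stalk protein, is covered to 96.0% and had 12.4 CPM in sample 2 against 12.8 in sample 1. For MRPL12, 33.4% of the 50-base windows were unique to its transcripts, the lowest share of the 78 genes. Conversely, MRPL2 overlaps no gene on its strand in GENCODE 29, with KLC4 on the opposite strand, and 89.8% of its windows were unique. MRPL48, another of the 10 lowest genes without such an overlap, had 9.84 CPM in sample 2 against 10.9 in sample 1, with 98.3% of its windows unique. The part of overlap in these levels was not tested. Without the 11 genes with an overlap of at least 10%, the large over small ratio was 1.58. On the opposite strand 29 of the 78 genes overlap another gene, over less than 10% of their exon bases in 13 of them and over at least 30% in 5, with 47.0% in MRPS18A as the highest. Without the strand setting of the counting, reads from these shared bases cannot be told apart.

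**Figure D2:**
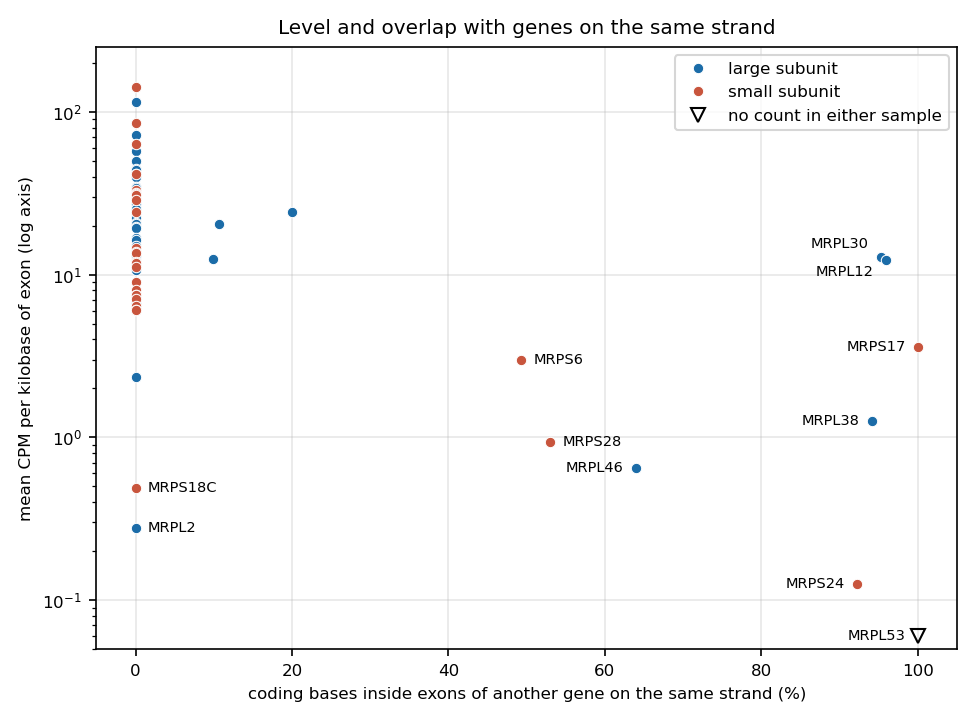
Mean level in CPM per kilobase of exon (log axis) against the percentage of a gene's coding bases that are also exon of a same-strand gene, each point 1 gene, blue for the large and red for the small subunit; the open triangle is MRPL53, with no count. Of the 9 genes at 40% or more, 7 lie below 4 CPM per kilobase, and MRPL30 and MRPL12 lie above 10.

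Pseudogenes took few reads. The table held 79 pseudogenes of these genes, 34 with a count, and together they had 79 counts in sample 2 and 32 in sample 1. MRPS31 had 335 counts in sample 2 and 196 in sample 1, and its pseudogene MRPS31P5, the highest of them, had 14 in sample 2 and 7 in sample 1.

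The genes were slightly but widely lower in sample 2 than in sample 1. Of the 75 genes averaging 1 CPM or more, 65 (86.7%) were lower in sample 2, where 46.9% of all 15530 genes were. The median log2 ratio of CPM + 1, sample 2 over sample 1, was −0.12 for these genes and 0.01 for all genes. Both subunits shared the shift, with a median of −0.11 and 42 of 47 genes lower in the large subunit and −0.12 and 23 of 28 in the small subunit. The ratios of the 75 ran over −0.45 to 0.14, the lowest for MRPS28, with 28 counts in sample 2 and 22 in sample 1, and the highest for MRPS5. The counting error of a ratio had a median of 0.08 on this log2 scale, close to the size of the shift for a gene taken alone. Sample 2 had over 2 times the counts of sample 1, and the part of depth in the shift was not tested. A correction for GC content and exon length over all genes left medians of −0.12 in both subunits. It also moved the median of all genes to −0.02, with 54.5% of them below 0.

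By a 2-sided exact binomial test on the counts of both libraries, with Benjamini-Hochberg adjustment over 15530 genes, 10 members passed an adjusted p of 0.05, all lower in sample 2. That is 13.3% of the 75 tested, where 8.97% of all genes passed, 4.56% lower in sample 2 and 4.41% higher. The test compares these libraries and not conditions, and it counts sampling of reads as the only error. With edgeR's exact test at the common dispersion of the samples (biological coefficient of variation 5.62%), which adds spread between libraries, no member passed, where 0.0837% of all genes did, 0.0258% lower and 0.058% higher in sample 2. At an unadjusted p under 0.05 the binomial test had 23 members, 22 of them lower, where 21.7% of all genes passed, 10.4% lower in sample 2.

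Of the 10 genes, 7 carry an MRPL symbol. MRPL23 (chromosome 11, 1947278 to 1984522, plus strand), at the exit tunnel, had 32.8 CPM in sample 2 against 44.3 in sample 1, a log2 ratio of −0.42 (exact binomial test, adjusted p = 4.6e-05). MRPL17 (chromosome 11, 6680782 to 6683401, minus strand), the counterpart of bacterial L17, had 40.5 CPM in sample 2 against 52.8 in sample 1, a log2 ratio of −0.38 (exact binomial test, adjusted p = 9.1e-05). These had the lowest adjusted p-values of the set by the binomial test. By edgeR's exact test on the same counts their unadjusted p-values were 0.00290 and 0.00636, and neither gene passed after adjustment. MRPL3, which reaches towards the peptidyl transferase centre, had 85.4 CPM in sample 2 against 99.8 in sample 1 (exact binomial test, adjusted p = 0.00223). MRPL4, which reaches into the exit tunnel, had 89.9 CPM in sample 2 against 102.4 in sample 1 (exact binomial test, adjusted p = 0.0130). MRPL40, MRPL51 and MRPL52, all specific to mitochondria, completed the 7. MRPL52 had 56.6 CPM in sample 2 against 67.7 in sample 1, a log2 ratio of −0.25. MRPL40 had 44.8 CPM in sample 2 against 54.6 in sample 1, a ratio of −0.28. MRPL51 had 72.3 CPM in sample 2 against 82.8 in sample 1, a ratio of −0.19.

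The other 3 carry an MRPS symbol. MRPS34 (exact binomial test, adjusted p = 0.000981) and MRPS26 (adjusted p = 0.0124 by the exact test) were also the 2 highest genes of their subunit per kilobase of exon, with the values given above and log2 ratios of −0.23 and −0.15. MRPS18A passed with an adjusted p of 0.0398 by the exact binomial test and lost the call when genes down to 0.1 CPM were tested, at 0.0669. The other abundant genes did not all follow. MRPS21 had more CPM in sample 2, at a log2 ratio of 0.10, and so had MRPS5, with 95.7 CPM in sample 2 against 87.0 in sample 1, a ratio of 0.14 (exact binomial test, adjusted p = 0.119).

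**Figure D3:**
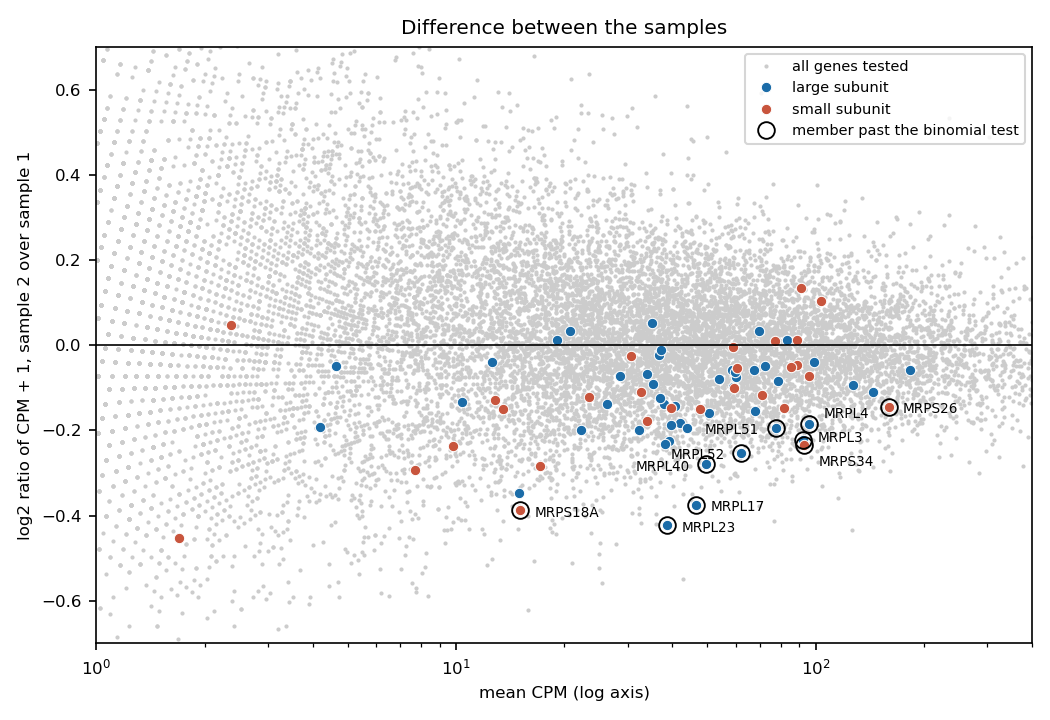
Log2 ratio of CPM + 1, sample 2 over sample 1, against mean CPM (log axis) for the 75 genes tested, blue for the large and red for the small subunit, over all genes tested in grey; genes beyond the axes are not drawn. Black rings mark the 10 genes past the exact binomial test, all below 0, and 65 of the 75 lie below the line.

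The remaining parts of the mitochondrial translation system were set beside the ribosomal protein genes. Of subunits that lack an MRP symbol, DAP3, a GTP-binding protein of the small subunit, had a mean of 136 CPM. AURKAIP1 had 202 CPM, PTCD3, another pentatricopeptide repeat protein, 127 CPM, CHCHD1 38.4 CPM and GADD45GIP1, of the large subunit, 207 CPM. Their median was 29.7 CPM per kilobase, and all 5 were lower in sample 2, of which AURKAIP1 and PTCD3 passed the binomial test. For these lists too, 46.9% of all genes were lower in sample 2 and 8.97% were called. With them added, the large over small ratio was 1.64. Of 25 assembly factors of the mitochondrial ribosome, 24 averaged 1 CPM or more, with a median of 8.84 CPM per kilobase over all 25. Of those 24, 19 (79.2%) were lower in sample 2, and 1 (4.17%), the pseudouridine synthase TRUB2, passed the test. DHX30, an RNA helicase, and ERAL1, a chaperone of the small subunit's RNA, were the highest, at 469 and 105.4 CPM. Of 17 translation factors, 16 were tested, 11 of them (68.75%) lower in sample 2. The 17 had a median of 9.02 CPM per kilobase, and GFM1, an elongation factor, and SLIRP, which binds mitochondrial messengers, passed the test, both lower in sample 2. The elongation factor TUFM led with 426 CPM, followed by LRPPRC, the partner of SLIRP, with 263 CPM. In plain CPM the median was 36.2 over the assembly factors and 35.0 over the translation factors, against 41.3 over the MRPL and MRPS genes. Their median exon lengths were 3851, 3841 and 2539 bases, in that order.

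The protein genes of the cytosolic ribosome stood well above those of the mitochondrial ribosome. The 78 mitochondrial genes had a median of 15.6 CPM per kilobase and the 86 cytosolic genes 121, led in CPM by RPS2 with 5089 and RPS4X with 2664. In the difference between the samples the mitochondrial set had a median log2 ratio of −0.12 and the cytosolic set −0.03, with 86.7% of mitochondrial and 68.2% of cytosolic genes below 0, where 46.9% of all genes were. The binomial test called 10 of 75 mitochondrial genes (13.3%), all lower in sample 2. It called 32 of 85 cytosolic genes (37.6%), 23 lower and 9 higher, where 8.97% of all genes were called. The median mitochondrial gene had 41.3 CPM and the median cytosolic gene 399 CPM, and the part of this in the share called was not tested. The counts of the ribosomal RNAs of the mitochondrial ribosome itself went in opposite directions. MT-RNR1, of the small subunit, had 715 CPM in sample 2 against 884 in sample 1, and MT-RNR2, of the large subunit, had 11794 CPM in sample 2 against 9623 in sample 1. MT-TV, the transfer RNA that takes the place of 5S ribosomal RNA in the human mitochondrial ribosome, is 69 bases long and had no count in either sample. How well the libraries capture these RNAs was not tested, so the counts are not measured amounts of them.

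**Figure D4:**
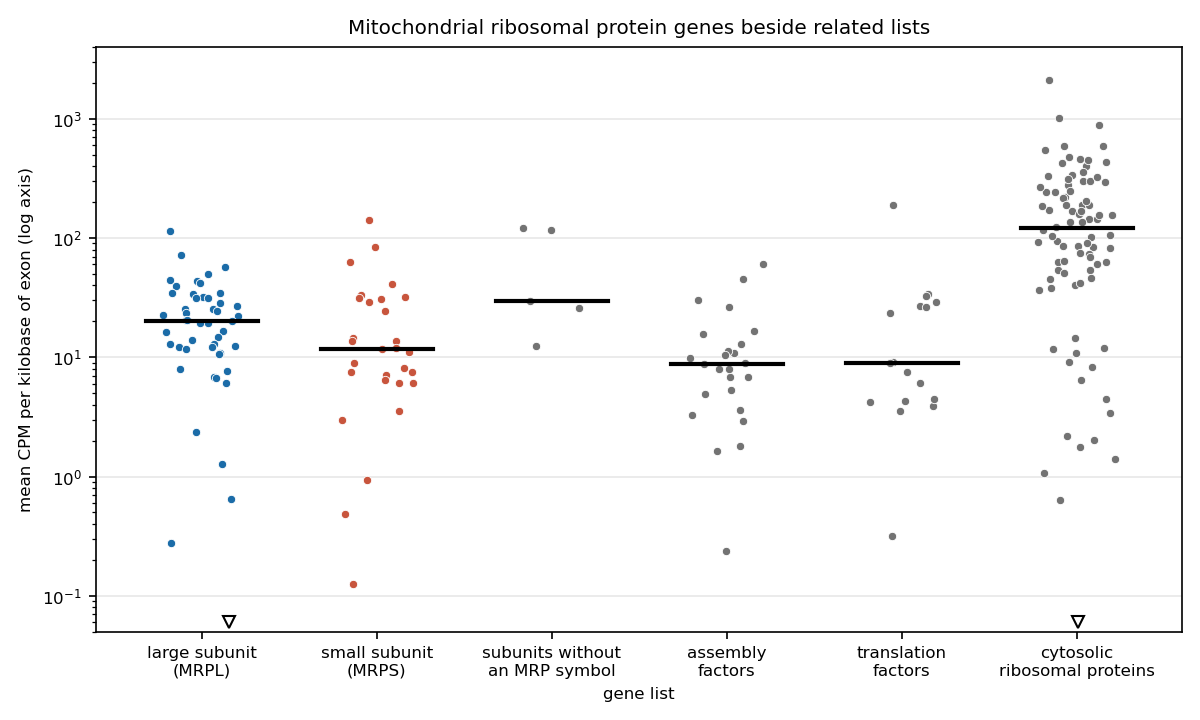
Mean level in CPM per kilobase of exon (log axis) of each gene in 6 lists, from the large and small mitochondrial subunits on the left to the cytosolic ribosomal proteins on the right; bars are medians and open triangles genes with no count. The large subunit has a median of 20.3 and the small subunit 11.8, the subunits without an MRP symbol 29.7, assembly factors 8.84, translation factors 9.02 and cytosolic ribosomal proteins 121.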

How the data were processed

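RNA was extracted from the knockdown cells with TRIzol and made into directional libraries, per the labels' protocols. The count table that the authors deposited gives whole, unnormalized read counts for each Ensembl gene. The authors also deposited CPM, which equal the counts times 1 constant per library, with 100% of values whole reads at a tolerance of 1e-06. The library size behind the CPM exceeds the column total by 2.68% in sample 2 and 3.78% in sample 1. STAR 2.7.7a, edgeR and GRCh38 are named in the submitters' processing notes. The counting program, strand setting, annotation and treatment of reads that fit several genes were not given in the sources used here. No row lacked a gene. Total counts were 21284648 in sample 2 and 9997706 in sample 1.

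Gene classes, exon lengths, overlaps and coordinates came from GENCODE 29 (GRCh38), which held 96.4% of the IDs, and 99.5% had a symbol. Promoters came from RefSeq (GRCh38.p14). Each mean ± SD is over both samples. Log2 ratios add 1 CPM, which shrinks them for low genes, and were taken for genes averaging 1 CPM or more. Exact binomial tests set each gene's counts against the share given by the deposited library sizes. The test was tried on simulated data with known changes. edgeR 4.0.16 in R 4.3.3 gave the common dispersion, and Python 3.11.15 with scipy 1.17.1 and pandas 2.3.3 was used elsewhere. No molecular identifiers are stated, so intervals (95% exact Poisson) and the limit of 3 counts cover counting error only. Alternatives changed the scaling, pseudocount, minimum CPM, length, subunit assignment, test and overlapped genes, and left out each sample in turn.

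The members, the gene lists and the subunit assignments were chosen with earlier results of these data known. Values are given for the 8 highest and 8 lowest genes of each subunit per kilobase, the genes past the binomial test, the MRPS18 paralogs, genes whose place in the structure differs from their symbol, subunits without an MRP symbol, overlapped genes, and the 2 highest genes of the other lists. The functional sites of the ribosome, the head-to-head examples, MRPS5, TRUB2, GFM1 and SLIRP were chosen after their values were seen. A marker gene of the cell type check is not reported here.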

Additional observations from a re-analysis of the deposited data

How the results depend on the processing

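The ratio of large over small subunit medians, 1.73 per kilobase of exon, reversed to 0.852 without a length correction. It was 1.93 with the longest transcript and 1.64 with the subunits that lack an MRP symbol. Alternatives chosen after seeing the data gave 1.15 with the coding length and 1.58 without overlapped genes. Summed levels, also chosen then, gave 1.77. The sums run over 49 large and 29 small subunit genes, so their ratio also carries the number of genes and is no check of the medians. Leaving out each sample in turn gave 1.73 to 1.78. The 10 genes called between the libraries became 0 with edgeR's exact test at the common dispersion, which was itself estimated from these libraries. The count was between 8 and 12 under the other scalings and minimums. MRPL32 and MRPL44 passed with column totals (adjusted p = 0.0432 and 0.0472, exact binomial test), and MRPL51 and MRPS18A failed when every gene with a count was tested (0.0585 and 0.103). The median log2 ratios of both subunits stayed below 0 with column totals, each minimum, the assignment by structure and the correction for GC content and length. That correction was also added later, and 68 of 75 genes were below 0 after it, where 54.5% of all genes were. Another pseudocount cannot change the sign of a ratio. With TMM scaling the median of the members was −0.117, as with the deposited scaling, so neither setting is a separate check. With column totals every level with a count rose, since those totals lie below the authors' library sizes. The rise exceeded 1 SD for 22 of 78 levels, which are those with a small SD for their level. For the other alternatives the cause was not tested beyond their construction. No paired analysis was possible because the samples form 1 group. At the depth of sample 1, 3 counts correspond to 0.289 CPM, so MRPL53 and MRPS24 could not be told apart there.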
